A study of Drosophila melanogaster with 4 samples.

Results

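The genes described here were those read at a low but clear level in Drosophila melanogaster ovaries with bam knocked down in the germline and hardly read in ovaries with aramis knocked down. Levels are in CPM, a gene's read count divided by the total of its library, multiplied by 1000000. A gene was taken when it had at least 2 CPM in both bam RNAi libraries and less than 0.5 CPM in both aramis RNAi libraries, and 55 of 17023 genes met these limits. With the limits turned round, at least 2 CPM in both aramis RNAi libraries and less than 0.5 CPM in both bam RNAi libraries, 10 genes were found. Because the levels of these 4 libraries chose the members, their levels are given as a description and no test is read from them.

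Poly(A)-selected RNA of whole ovaries was sequenced in 2 libraries of aramis RNAi and 2 libraries of bam RNAi. The aramis RNAi flies carried UAS-Dicer2 and NosGAL4 with an RNAi transgene against aramis, and the bam RNAi flies carried UAS-Dicer2 and NosGAL4 with an RNAi transgene against bam. The females of both groups were fed yeast and dissected 1 to 3 days after eclosion, and the RNA of both was fragmented for 13 minutes. NosGAL4 drives expression in germ cells, so the somatic cells of the ovary carried the transgenes without the driver being active there, and each group was a knockdown, with no ovary free of RNAi analysed here.

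In the Drosophila ovary, germline stem cells divide to give cystoblasts, which switch on bag of marbles (bam) and then divide into cysts that become egg chambers. Without bam the germ cells do not differentiate and collect at an early stage. Aramis (gene symbol ais) is a DEAD-box RNA helicase that germ cells need for ribosome production and for the separation of stem cell daughters. Around the germ cells lie somatic escort and follicle cells, and late follicle cells build the vitelline membrane and the chorion of the eggshell.

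The libraries held 16754980 and 15530745 counted reads in aramis RNAi, against 12977013 and 14764740 in bam RNAi. The ais gene itself had 6.80 and 9.21 CPM in aramis RNAi, against 66.7 and 25.5 CPM in bam RNAi. The bam gene had 2.92 and 4.38 CPM in aramis RNAi, against 4.39 and 5.55 CPM in bam RNAi, so the libraries labelled bam RNAi did not lie below the others for bam, and bam RNAi in what follows means the libraries so labelled. The genes osk, otu, piwi and aub, taken as germline markers, summed to between 632 and 700 CPM in aramis RNAi. In bam RNAi they summed to between 1295 and 2495 CPM. Most of this sum was piwi in every library, so it mainly follows that gene and is no measure of the amount of germ cells. Like piwi, otu and aub were lower in both aramis RNAi libraries. For otu the levels were 13.4 and 18.4 CPM in aramis RNAi, against 103 and 128 CPM in bam RNAi. For aub they were 82.2 and 80.0 CPM in aramis RNAi, against 254 and 618 CPM in bam RNAi. The groups overlapped for osk, with 2.63 and 7.08 CPM in aramis RNAi, against 3.85 and 3.18 CPM in bam RNAi. In contrast, 6 muscle genes summed to between 39145 and 40925 CPM in aramis RNAi and between 15418 and 18497 CPM in bam RNAi. Hemocyte markers, 5 genes, summed to 2393 and 2662 CPM in aramis RNAi, against 308 and 499.6 CPM in bam RNAi, and 3 fat body markers to 874 and 334 CPM in aramis RNAi, against 93.2 and 128 CPM in bam RNAi. The markers of late follicle cells, 6 genes, summed to between 13.8 and 32.8 CPM in aramis RNAi and between 314 and 424 CPM in bam RNAi. Nearly all of the bam RNAi sum came from the vitelline membrane genes Vml, Vm26Aa and Vm34Ca. Of the rest, the groups overlapped for Cp36 and Cp38. The marker yellow-g was higher in aramis RNAi, with 5.79 and 9.14 CPM, against 1.16 and 1.56 CPM in bam RNAi. The groups overlapped for the 5 markers of ovarian soma, which summed to 1675 and 2265 CPM in aramis RNAi, against 1929 and 1471 CPM in bam RNAi. The libraries of the groups thus differed in the summed markers of several cell types but not of all. The part of this in the levels below was not tested. In whole ovaries, fewer cells of a type and less RNA per cell cannot be told apart.

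The members were genes of low abundance. Their median level was 0.179 and 0.193 CPM in the aramis RNAi libraries, against 3.24 and 3.45 CPM in the bam RNAi libraries. Their highest level was 0.477 and 0.451 CPM in aramis RNAi, against 15 and 13.1 CPM in bam RNAi. In reads, 0.5 CPM stood for 8.38 and 7.77 counts in the aramis RNAi libraries, and 2 CPM stood for 26 and 29.5 counts in the bam RNAi libraries. All 55 members together had 170 and 155 counts in aramis RNAi, against 3136 and 3674 counts in bam RNAi. Scaled for depth, 4.10% of their summed bam RNAi level was left in aramis RNAi, with an exact 95% interval of 3.66% to 4.58%. This interval and those that follow cover counting error only and not the spread between ovaries.

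**Figure D1:**
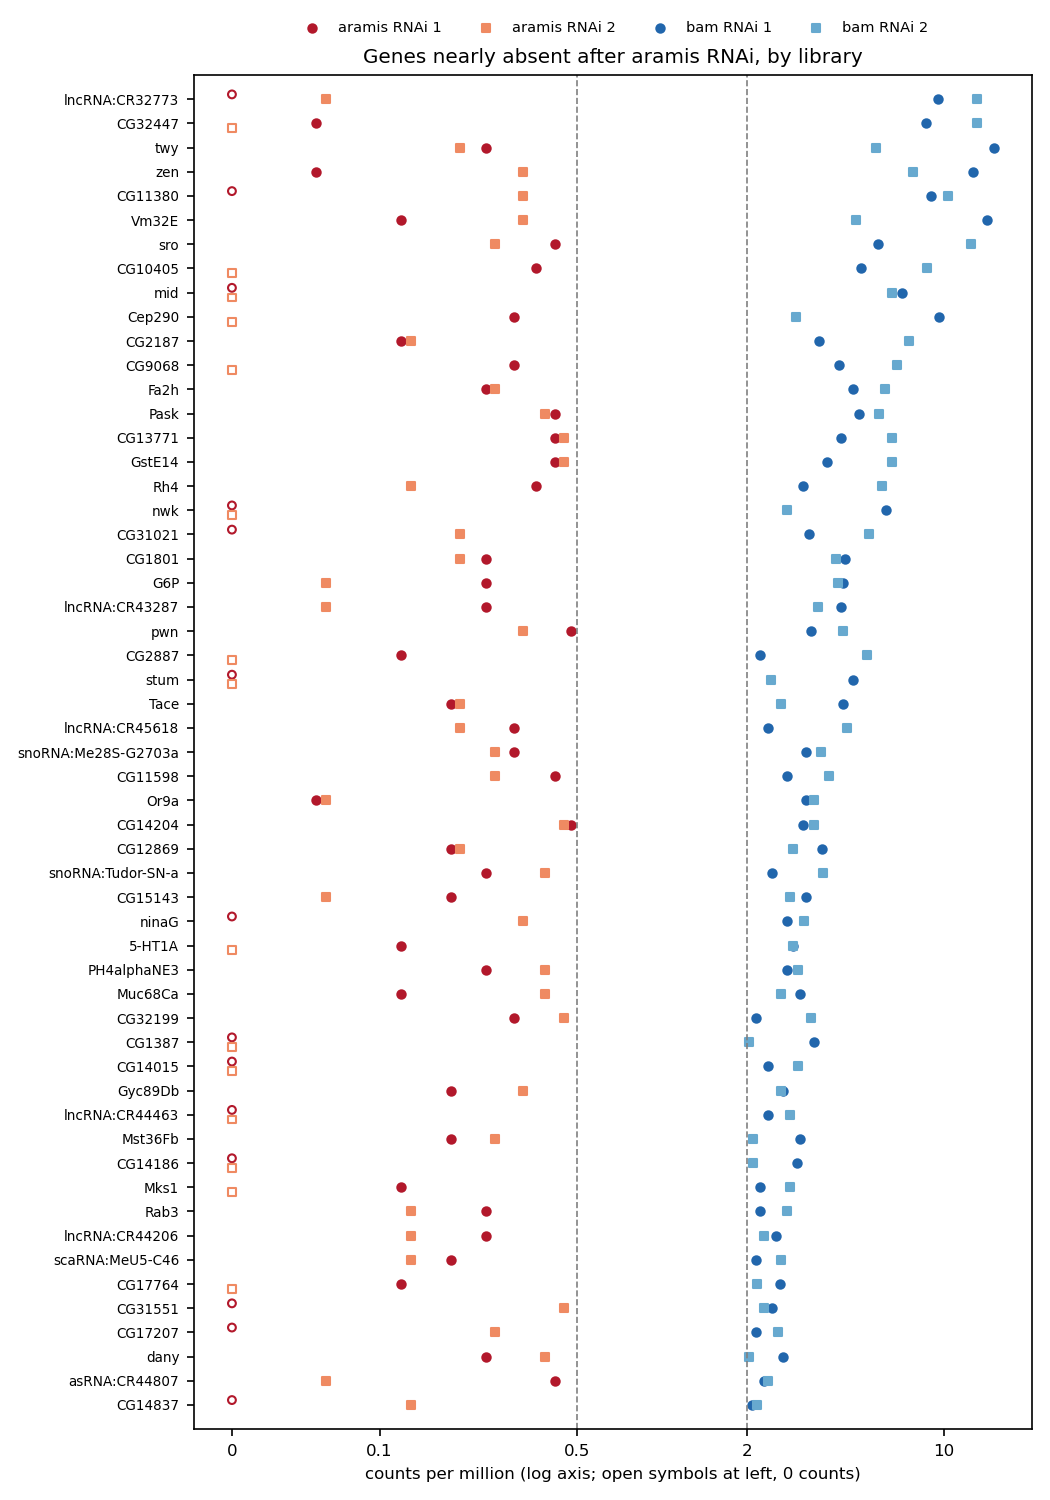
CPM of each of the 55 members in the 2 aramis RNAi libraries and the 2 bam RNAi libraries on a log axis, with the limits of 0.5 and 2 CPM drawn as lines. The aramis RNAi points reach at most 0.477 CPM and the bam RNAi points run between 2.03 and 15 CPM.

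Taken one by one, the share of the bam RNAi level left in aramis RNAi had a median of 4.09% over all 55 members. It ran between 0.271% and 14% over the 48 members with any count in aramis RNAi. No read of 7 members was counted in either aramis RNAi library, a further 15 members had none in 1 of the libraries, and 21 members had at most 3 counts in each. The highest upper bound of any member's interval was 25.9%, for dany. None of the members stood high in bam RNAi: of the 8131 genes with at least 2 CPM in both bam RNAi libraries they made up 0.676%, and of the 1348 such genes whose mean was no higher than that of the highest member they made up 4.08%. Scaled to the summed counts of a list of 31 germline markers, an alternative chosen after seeing the data, 12 of the 55 met the limits, mid, nwk, stum, Or9a and Mks1 among them.

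**Figure D2:**
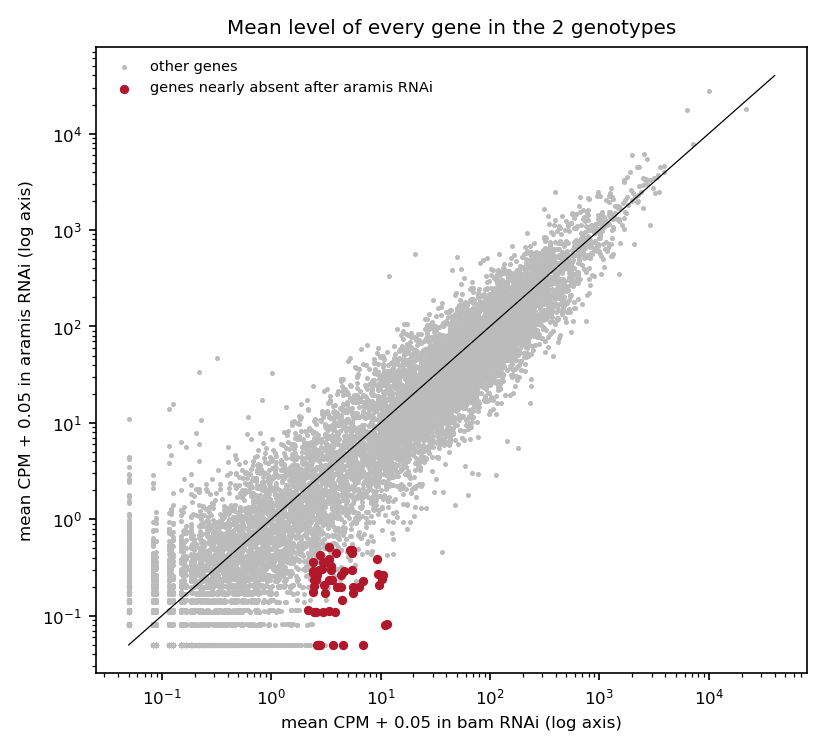
Mean CPM of each gene in aramis RNAi against its mean CPM in bam RNAi, both on log axes, with the 55 members marked. The members lie in the lower part of the plot, with mean bam RNAi levels of at most 11.3 CPM.

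The limits of the choice fell within a run of similar genes. Just inside the bam RNAi limit stood CG1387, with 0 and 0 counts in aramis RNAi, against 45 and 30 in bam RNAi, and dany, with 4 and 6 counts in aramis RNAi, against 35 and 30 in bam RNAi. Just outside it stood f (forked, an actin bundling protein of bristles), with 0 and 0 counts in aramis RNAi, against 32 and 29 in bam RNAi, and CG17777, with 2 and 6 counts in aramis RNAi, against 28 and 29 in bam RNAi. Nearest inside the aramis RNAi limit were pwn and CG14204, each at 0.477 CPM in 1 aramis RNAi library. Among the nearest outside it were CG43366 and CG9368, each at 0.515 CPM in 1 aramis RNAi library, and 86 genes had their higher aramis RNAi level between 0.5 and 1 CPM while passing the bam RNAi limit. One of these, CG15822, singled out after its values were seen, had 5 and 8 counts in aramis RNAi, against 355 and 673 counts in bam RNAi, more in bam RNAi than any member, and lay at the same 0.515 CPM in 1 aramis RNAi library.

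For genes with no count in either aramis RNAi library the fold is a lower bound, set against a floor of 3 counts over the group, which is 0.0929 CPM. The T-box transcription factor midline (mid; FBgn0261963, on the dm6 build as all coordinates here, chromosome 2L, 5461639 to 5467610, plus strand), which acts in heart and nerve cord formation, had 0 and 0 counts in aramis RNAi, against 92 and 97 counts in bam RNAi. It was thus at least 73.3-fold lower in aramis RNAi. Nervous wreck (nwk; FBgn0263456, chromosome 3L, 9137860 to 9145693, plus strand), an F-BAR and SH3 domain protein that limits growth of the neuromuscular synapse, had 0 and 0 counts in aramis RNAi, against 81 and 41 counts in bam RNAi, at least 47.3-fold lower. The gene stum (FBgn0050263, chromosome 2R, 21674901 to 21685000, plus strand), needed for mechanical sensing in proprioceptive neurons, had 0 and 0 counts in aramis RNAi, against 62 and 36 counts in bam RNAi, at least 38-fold lower. The other members with no count in aramis RNAi were closer to the bam RNAi limit, and they are genes without a name of their own. CG1387 was at least 29.1-fold, CG14015 at least 29.5-fold, CG14186 at least 27.2-fold and lncRNA:CR44463 at least 28.3-fold lower in aramis RNAi.

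The highest member in bam RNAi was a long noncoding RNA. lncRNA:CR32773 (FBgn0052773, chromosome X, 4387676 to 4611385, minus strand) had 0 and 1 counts in aramis RNAi, against 124 and 193 counts in bam RNAi, which left 0.271% of its bam RNAi level (interval 0.00684% to 1.52%). Its locus overlapped 12 other annotated genes. CG32447 (FBgn0052447, chromosome 3L, 21690612 to 21706365, minus strand) was nearly as high, with 1 and 0 counts in aramis RNAi, against 112 and 193 counts in bam RNAi, which left 0.282%. Unlike lncRNA:CR32773 it overlapped no other annotated gene. These members and mid had the lowest upper bounds of all, under 2% of the bam RNAi level.

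**Figure D3:**
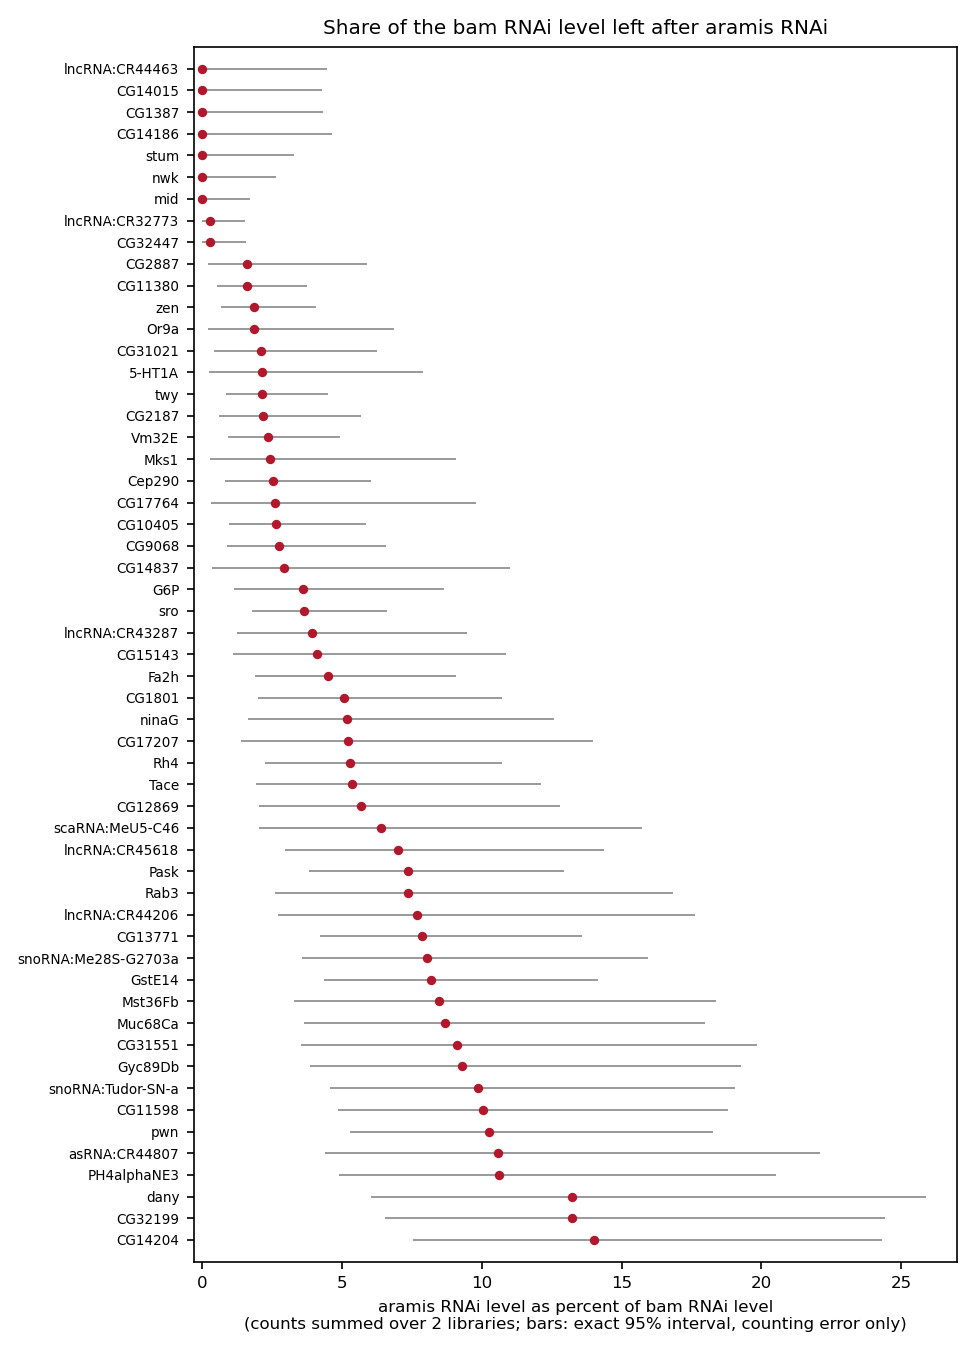
Level in aramis RNAi as a percent of the level in bam RNAi for each of the 55 members, from counts summed over 2 libraries, with exact 95% intervals that cover counting error only. The points run up to 14% and the upper bounds up to 25.9%.

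In the fit over all genes with DESeq2, 11128 genes with at least 10 counts over the 4 libraries were tested, and a gene was called at a Benjamini-Hochberg adjusted p under 0.05 and a change over 4-fold. Of all genes tested, 3.25% were called lower in aramis RNAi and 2.99% higher, 6.25% in all, which is 333 genes higher and 362 lower. Scaled by total counts instead, 166 were higher and 622 lower. All 55 members were tested and 50 were called lower. Since the members were chosen on this contrast, nothing is read from that count. With 1 library left out it was 15 without aramis RNAi library 1 and 21 without aramis RNAi library 2. It was 16 of 36 members with an adjusted p without bam RNAi library 1 and 17 of 24 without bam RNAi library 2. In these fits the lone library of a group is assumed to vary like the other group. Those not called were CG14204, CG31551, CG32199, asRNA:CR44807 and dany, with fitted log2 changes between -2.47 and -3.08. Nothing in the labels says whether the 2 libraries of a group came from separate crosses, so the fit measures the spread between these libraries only.

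The 25 protein-coding members with a name were grouped by hand from general knowledge of their roles, with their values known, and no share of such roles among other genes was taken. In this grouping 9 members are genes known from sense organs and neurons, of which Rh4, Or9a and 5-HT1A stand on a nervous system, eye or chemosensory list. Together they summed to 1.19 and 1.03 CPM in aramis RNAi, against 32.4 and 30.4 CPM in bam RNAi, and the median share left was 3.61%. Beside nwk and stum, the set held receptors, their helpers and proteins of the synapse. The neuronal markers elav, nSyb, Syt1 and brp summed to 83.8 and 127 CPM in aramis RNAi and to 140 and 79.8 CPM in bam RNAi, nearly all of it elav. Of the others, nSyb had 1.67 and 2.12 CPM in aramis RNAi, against 1.31 and 1.35 CPM in bam RNAi, and the groups overlapped for Syt1 and brp.

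Among the receptors, rhodopsin 4 (Rh4; FBgn0003250, chromosome 3L, 16852527 to 16862517, minus strand), the ultraviolet opsin of a class of R7 photoreceptors, had 6 and 2 counts in aramis RNAi, against 41 and 89 counts in bam RNAi. The odorant receptor Or9a (FBgn0030204, chromosome X, 10458186 to 10459676, minus strand) had 1 and 1 counts in aramis RNAi, against 42 and 51 counts in bam RNAi. The serotonin receptor 5-HT1A (FBgn0004168, chromosome 2R, 19067155 to 19121958, plus strand) had 2 and 0 counts in aramis RNAi, against 38 and 43 counts in bam RNAi. Non-overlap of the groups is set by the limits for every member, so the values only place these genes among the others. The share left was 5.29% for Rh4, 1.85% for Or9a and 2.12% for 5-HT1A. Rh4 overlaps sina, a gene on the other strand which is needed to form R7 photoreceptors, and sina stood at 37.8% of its bam RNAi level.

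The remaining genes of this set work beside such receptors or at synapses. NinaG, an oxidoreductase needed to make the chromophore of rhodopsin, had 0 and 5 counts in aramis RNAi, against 36 and 47 counts in bam RNAi. Rab3, a small GTPase of synaptic vesicles, had 4 and 2 counts in aramis RNAi, against 29 and 41 counts in bam RNAi. G6P, a glucose-6-phosphatase known from peptidergic neurons of the fly, had 4 and 1 counts in aramis RNAi, against 57 and 62 counts in bam RNAi. For each of these 3 genes the 2 bam RNAi libraries were less than 2-fold apart. Gyc89Db, a soluble guanylyl cyclase of oxygen-sensing neurons, had 3 and 5 counts in aramis RNAi, against 35 and 39 counts in bam RNAi. With 9.29% of its bam RNAi level left, it had the highest share of the 9.

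The relatives of Gyc89Db were looked up after these values were seen. Gyc89Da, the cyclase gene beside Gyc89Db, had 9 and 0 counts in aramis RNAi, against 47 and 73 counts in bam RNAi, and missed the limit of 0.5 CPM through 1 library. Gyc88E, a partner in the same family, was higher in aramis RNAi in both libraries, with 95 and 107 counts in aramis RNAi, against 41 and 36 counts in bam RNAi. Gycbeta100B, the beta subunit of the nitric oxide-sensitive cyclase, had 52 and 57 counts in aramis RNAi, against 9 and 27 counts in bam RNAi. Gycalpha99B, the alpha subunit of that cyclase, was scarcely read in either group, with 2 and 8 counts in aramis RNAi, against 4 and 2 counts in bam RNAi. The family thus did not share 1 pattern.

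Genes of the base of the cilium formed a set of 3. Cilia of the fly are built only by sensory neurons and by the male germline, and the transition zone at their base controls which proteins enter. Cep290 (FBgn0035168, chromosome 3L, 843926 to 851080, plus strand), a transition zone scaffold, had 5 and 0 counts in aramis RNAi, against 125 and 44 counts in bam RNAi. Mks1 (FBgn0030395, chromosome X, 12494395 to 12496597, minus strand), a B9-domain protein of the same zone, had 2 and 0 counts in aramis RNAi, against 29 and 42 counts in bam RNAi. The gene twy (FBgn0036206, chromosome 3L, 11790212 to 11793283, minus strand) carries the RefSeq synonym Fbf1, the name of a mammalian protein of the fibres that tie the basal body to the membrane. It had 4 and 3 counts in aramis RNAi, against 195 and 85 counts in bam RNAi.

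The 3 genes left similar shares, 2.54% for Cep290, 2.42% for Mks1 and 2.15% for twy. For Cep290 and twy, bam RNAi library 1 was over 2-fold above library 2, by 3.23 and 2.61 times in CPM, while Mks1 was a little lower in library 1. Other genes of the transition zone, looked up after these values were seen, did not all follow. Of 9 genes tested on that list, 4 were called lower in aramis RNAi and 0 higher, with a median log2 change of -2.12. Over all genes tested, 3.25% were called lower. Of the 4 calls, 3 were the members, chosen on this contrast, and only 1 was another gene. The median includes the members as well, so nothing is read from it for the list. Fam92 had 9 and 11 counts in aramis RNAi, against 147 and 73 counts in bam RNAi, just above the limit in aramis RNAi. TMEM216 had 193 and 256 counts in aramis RNAi, against 428 and 235 counts in bam RNAi, so its groups overlapped. Cc2d2a had 37 and 1 counts in aramis RNAi, against 49 and 76 counts in bam RNAi, and B9d2 and tctn had no count in any library. B9d1 had 8 and 0 counts in aramis RNAi, against 26 and 10 counts in bam RNAi. The groups overlapped for dila, with 13 and 0 counts in aramis RNAi, against 16 and 7 counts in bam RNAi. Cby was low in all 4 libraries, with 9 and 0 counts in aramis RNAi, against 9 and 14 counts in bam RNAi.

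**Figure D4:**
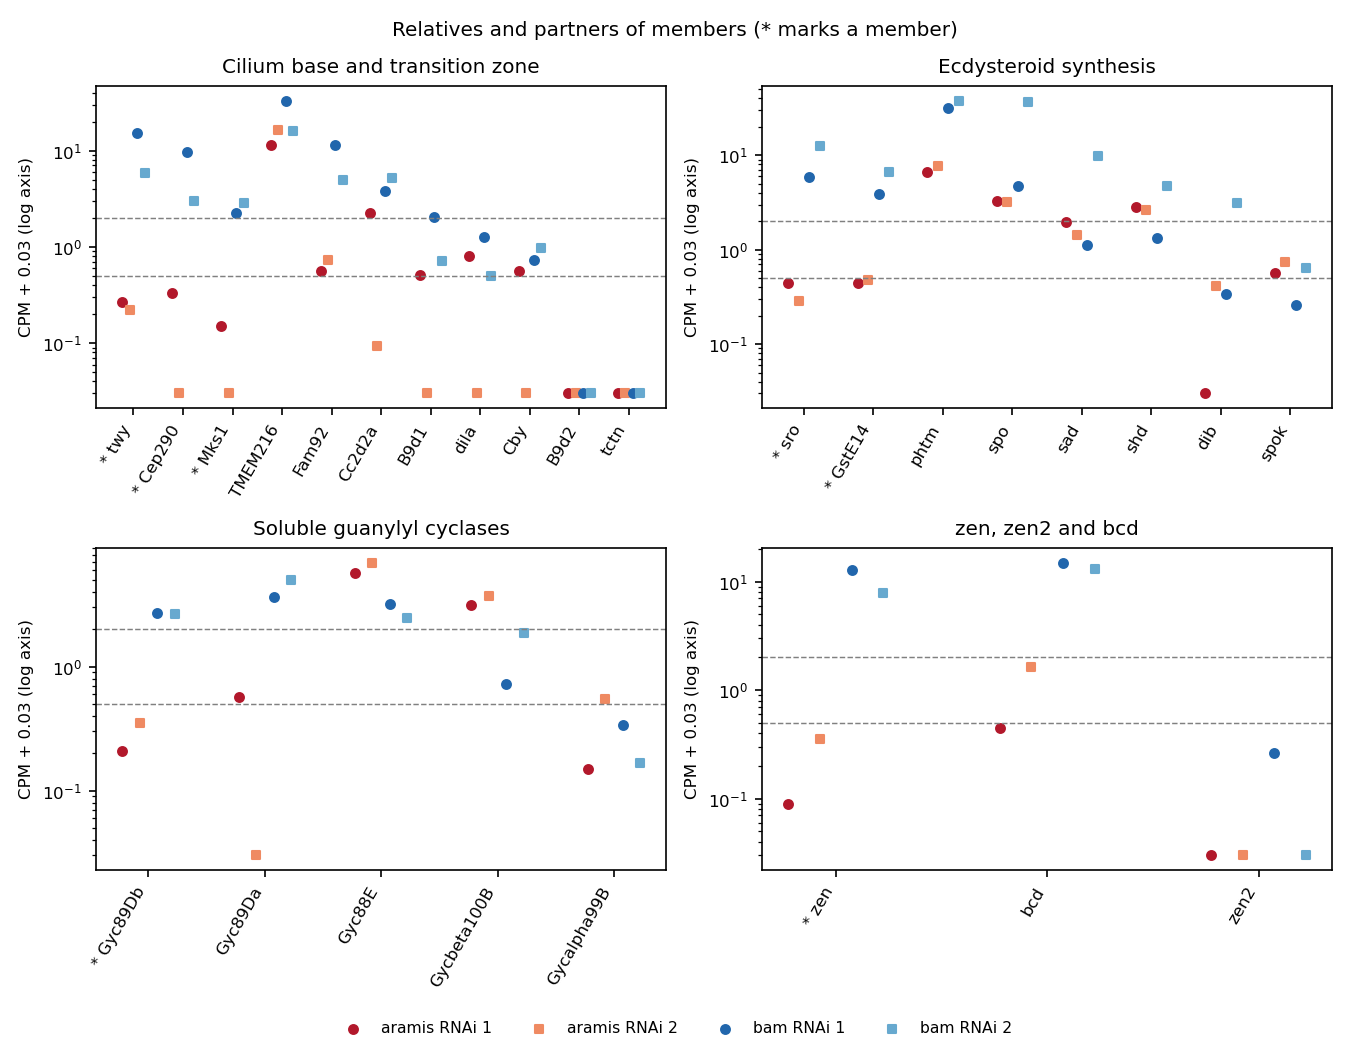
CPM plus 0.03 on log axes for members (marked with *) and their relatives or partners in 4 groups of genes, with aramis RNAi points left of bam RNAi points and dashed lines at 0.5 and 2 CPM. The relatives TMEM216, phtm and Gyc88E lie above 2 CPM in both aramis RNAi libraries, and bcd lies above 0.5 CPM in 1 of them.

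Of the 2 developmental transcription factors, mid was given above. Zerknullt (zen; FBgn0004053, chromosome 3R, 6752864 to 6754194, minus strand) is a homeodomain protein that patterns the dorsal side of the early embryo and specifies the amnioserosa. It had 0.0597 and 0.322 CPM in aramis RNAi, from 1 and 5 counts, and 12.6 and 7.79 CPM in bam RNAi, from 164 and 115 counts. The share left was 1.85% (interval 0.672% to 4.07%). Its neighbour bicoid (bcd), whose mRNA is laid down in the egg by the germline, had 7 and 25 counts in aramis RNAi, against 194 and 193 counts in bam RNAi. The paralogue zen2, of the same gene complex, had 0 and 0 counts in aramis RNAi, against 3 and 0 counts in bam RNAi, so it was not detectable at this depth. Of 33 homeodomain genes tested on a list kept for this family, 2 were called lower in aramis RNAi and 0 higher. This list does not hold zen. Among all genes tested, 3.25% were called lower and 2.99% higher.

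Vm32E (FBgn0014076, chromosome 2L, 11171167 to 11171665, minus strand), a vitelline membrane protein made by follicle cells, was the eggshell gene among the members. It had 0.119 and 0.322 CPM in aramis RNAi, against 14.2 and 4.88 CPM in bam RNAi, and 2.35% was left. Per kilobase of transcript its mean level in bam RNAi was 19.1 CPM, the highest of the protein-coding members. The vitelline membrane genes Vm26Aa and Vml were also low in aramis RNAi but stayed above its limit. Vm26Aa had 28 and 67 counts in aramis RNAi, against 775 and 1134 counts in bam RNAi, and Vml had 64 and 111 counts in aramis RNAi, against 2746 and 2201 counts in bam RNAi. Of 21 eggshell genes tested, 8 were called lower in aramis RNAi, Vm32E among them, and 2 higher. Over all genes tested, 3.25% were called lower and 2.99% higher. The groups overlapped for the eggshell gene Cp15. The gene yellow-g2 was higher in aramis RNAi, with 49 and 68 counts, against 15 and 4 counts in bam RNAi. Vm26Aa and Vml are themselves among the late follicle cell markers given above, so that sum is no separate comparison for Vm32E. The markers Cp36, Cp38 and yellow-g did not move with Vm32E. For Cp36 and Cp38 the groups overlapped, and yellow-g was higher in aramis RNAi. The part of that cell type was not tested.

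Both genes of ecdysteroid synthesis were lower in bam RNAi library 1 than in library 2. Shroud (sro; FBgn0262112, chromosome 3R, 29794597 to 29795805, plus strand), a dehydrogenase of the early steps from cholesterol to ecdysone, had 7 and 4 counts in aramis RNAi, against 76 and 184 counts in bam RNAi. GstE14 (FBgn0033817, chromosome 2R, 13239729 to 13241013, plus strand), a glutathione transferase that steroid-making cells need to use cholesterol, had 7 and 7 counts in aramis RNAi, against 50 and 97 counts in bam RNAi. The share left was 3.64% for sro and 8.18% for GstE14.

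Of the other genes of the pathway, looked up after these values were seen, phtm, spo, sad and shd kept more reads in aramis RNAi, while dib had 0 and 6 counts in aramis RNAi, against 4 and 46 counts in bam RNAi. The cytochrome P450 gene phantom (phtm) had 111 and 120 counts in aramis RNAi, against 407 and 558 counts in bam RNAi. Spook (spo) had 55 and 49 counts in aramis RNAi, against 61 and 540 counts in bam RNAi, shadow (sad) had 32 and 22 counts in aramis RNAi, against 14 and 144 counts in bam RNAi, and shade (shd) had 47 and 40 counts in aramis RNAi, against 17 and 70 counts in bam RNAi. For sad, shd and dib the groups overlapped, and spo, sad, shd and dib were each far higher in bam RNAi library 2 than in library 1. The gene spok was low in all 4 libraries, with 9 and 11 counts in aramis RNAi, against 3 and 9 counts in bam RNAi. Of 55 glutathione transferase and UDP-glycosyltransferase genes tested, 2 were called lower in aramis RNAi, GstE14 among them, and 8 higher. The shares over all genes tested were 3.25% lower and 2.99% higher.

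Testis genes made up 2 members. Mst36Fb, named for its male-specific transcript, had 3 and 4 counts in aramis RNAi, against 40 and 31 counts in bam RNAi. The gene dany, which acts in the control of transcription in spermatocytes, had 4 and 6 counts in aramis RNAi, against 35 and 30 counts in bam RNAi. The share left was 8.47% for Mst36Fb and 13.2% for dany, above the median member. The testis markers Mst87F, dj, bb8 and betaTub85D summed to 3.40 and 1.42 CPM in aramis RNAi, against 2.16 and 2.71 CPM in bam RNAi, with Mst87F at 0 in every library. Of 21 testis genes tested, 1 was called lower in aramis RNAi and 0 higher, and it was not a member. Across all genes tested, 3.25% were called lower and 2.99% higher.

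Another 3 members were enzymes of other kinds. Fa2h, a fatty acid 2-hydroxylase, had 4 and 4 counts in aramis RNAi, against 62 and 91 counts in bam RNAi. Pask, a kinase with a PAS domain, had 7 and 6 counts in aramis RNAi, against 65 and 87 counts in bam RNAi. PH4alphaNE3, a prolyl 4-hydroxylase alpha subunit, had 4 and 6 counts in aramis RNAi, against 36 and 45 counts in bam RNAi. The share left ran between 4.49% for Fa2h and 10.6% for PH4alphaNE3. PH4alphaEFB, the widely used enzyme of the PH4alphaNE3 family, was abundant in both groups, with 1753 and 2555 counts in aramis RNAi, against 1236 and 3009 counts in bam RNAi.

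At the cell surface and in the matrix outside it there were 3 members. Tace, a membrane metalloprotease of the ADAM family, had 3 and 3 counts in aramis RNAi, against 57 and 39 counts in bam RNAi. The mucin Muc68Ca had 2 and 6 counts in aramis RNAi, against 40 and 39 counts in bam RNAi. The gene pawn (pwn), needed for the form of bristles and hairs, had 8 and 5 counts in aramis RNAi, against 44 and 65 counts in bam RNAi. With 10.2% of its level left, pwn was among the members least far apart between the groups.

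A CG number was the only name of 21 protein-coding members, 45.7% of the 46, against 51.6% of the protein-coding genes in the same bam RNAi range. They summed to 3.28 and 3.54 CPM in aramis RNAi, against 78.1 and 100.9 CPM in bam RNAi, with a median of 2.75% left. CG11380 had 0 and 5 counts in aramis RNAi, against 117 and 153 counts in bam RNAi. CG10405, with the RefSeq synonym SP155, had 6 and 0 counts in aramis RNAi, against 66 and 129 counts in bam RNAi. CG2187, with the RefSeq synonym dSLC5A6, a name of the sodium-dependent solute carriers, had 2 and 2 counts in aramis RNAi, against 47 and 111 counts in bam RNAi. These and CG32447 were the highest of the set, and all 4 were higher in bam RNAi library 2 than in library 1.

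CG9068 had 5 and 0 counts in aramis RNAi, against 55 and 101 counts in bam RNAi, CG13771 had 7 and 7 counts in aramis RNAi, against 56 and 97 counts in bam RNAi, and CG2887 had 2 and 0 counts in aramis RNAi, against 29 and 79 counts in bam RNAi. Of the set, CG14204 came nearest to the other group, with 8 and 7 counts in aramis RNAi, against 41 and 51 counts in bam RNAi, 14% left. CG1801, CG11598, CG12869, CG15143, CG14837, CG17207, CG17764, CG31021, CG31551 and CG32199 completed it, with at most 7 counts in any aramis RNAi library and between 27 and 80 counts in any bam RNAi library, beside the unread CG1387, CG14015 and CG14186. No role is given here for these genes.

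Noncoding RNAs were 9 of the 55 members. By the annotation 6 were of the class ncRNA, 10.9% of the members against 6.99% of the genes in the same bam RNAi range, and 3 were of the class snoRNA, 5.45% against 2.41%. Together the 9 summed to 1.91 and 1.29 CPM in aramis RNAi, against 31.4 and 38.7 CPM in bam RNAi, and the median share left was 7.01%. Beside lncRNA:CR32773 and lncRNA:CR44463 the long RNAs were lncRNA:CR43287, lncRNA:CR45618, lncRNA:CR44206 and the antisense asRNA:CR44807. They had between 1 and 7 counts in any aramis RNAi library and between 30 and 67 counts in any bam RNAi library. asRNA:CR44807 shared 71.1% of its exonic bases with other genes, the most of any member.

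The small RNAs lie in longer genes. snoRNA:Me28S-G2703a, a guide for methylation of 28S ribosomal RNA, had 5 and 4 counts in aramis RNAi, against 42 and 54 counts in bam RNAi. Its host Uhg5 stood at 30.6% of its bam RNAi level, against 8.06% for the small RNA. snoRNA:Tudor-SN-a had 9.88% left, against 51.3% for its host Tudor-SN, and scaRNA:MeU5-C46, a guide for the U5 spliceosomal RNA, had 6.41% left, against 24.2% for CG1142 around it. The small RNAs were chosen for low aramis RNAi levels and the hosts were not, so nothing is read from the gap between them. Such RNAs have no poly(A) tail, and how their reads entered these libraries was not tested.

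The members lay on X (11), 2L (7), 2R (14), 3L (10) and 3R (13), with none on chromosome 4. The share on 2R was 25.5%, against 20.4% of the genes in the same bam RNAi range, and the share on 2L was 12.7%, against 18.6%, the arms where the shares differed most. The protein-coding members had a median transcript length of 2494 nt, against 1646 nt in that range, and a median of 4 exons against 3. Single-exon genes were 15.2% of them, against 16%. Another annotated gene overlapped 23 members, 41.8% against 55.2% in the range, and 9 members shared any exonic base.

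Distances between neighbouring members were taken, with no such distances for other genes beside them. In 4 pairs, members lay within 50 kb of each other: CG31021 and PH4alphaNE3, 139 nt apart with no gene between them, Or9a and CG2887, CG10405 and Gyc89Db, and CG12869 and snoRNA:Me28S-G2703a. CG31021 had 0 and 3 counts in aramis RNAi, against 43 and 80 counts in bam RNAi, a range near that of PH4alphaNE3. Of the genes next to members, 60 had at least 2 CPM in both bam RNAi libraries, and their median level in aramis RNAi was 58.6% of that in bam RNAi, against 71.2% over all 8131 such genes. Of the 60, 9 (15%) were under 25% of their bam RNAi level, against 6.87% of all such genes. Beside bcd and Gyc89Da these held the taste receptor gene Gr61a next to Cep290. Gr61a had 23 and 12 counts in aramis RNAi, against 151 and 149 counts in bam RNAi. The acetylcholine receptor subunit nAChRalpha3, next to CG1387, had 34 and 57 counts in aramis RNAi, against 333 and 158 counts in bam RNAi. The rest were daw (9.45% of its bam RNAi level), CG3323 (10.4%), tomb (19.0%), Incenp (21.9%) and CG18530 (22.6%).

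Some members lie across highly read genes, and 11 overlapped a gene of at least 10 CPM in bam RNAi. There were 17 such overlapping genes, and in aramis RNAi they stood between 11.7% and 122.6% of their bam RNAi level, with a median of 51.3%. Of the 17, 4 were under 25% (over all 8131 genes with at least 2 CPM in both bam RNAi libraries the share was 6.87%): Dhc36C (with CG15143) at 11.7%, CG11125 (with Fa2h) at 18.7%, CG13029 (with Rh4) at 23.8% and CG1142 at the value given. The members were chosen for low aramis RNAi levels and these genes were not, so the sets are not compared.

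The 2 bam RNAi libraries did not give the members the same levels. Library 1 was higher for 23 members and library 2 for 32, and 7 members (12.7%) were over 2-fold apart, against 20.0% of the genes in the same range. Long members tended to be higher in library 1. Across the 55 members, Spearman's rho between transcript length and the ratio of library 1 to library 2 was 0.35, against 0.10 over 1330 genes in the range. The genes of each group share the same 2 libraries and are not independent replicates. The ratio had a median of 1.07 over the longer 27 members, 16 of them higher in library 1, and of 0.817 over the shorter 27, 7 of them higher in library 1.

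**Figure D5:**
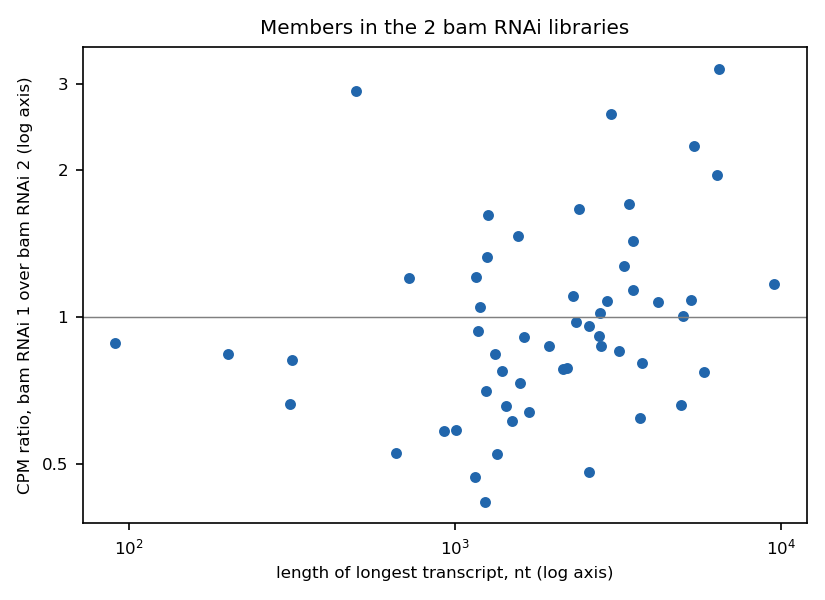
Ratio of CPM in bam RNAi library 1 to that in library 2 for each of the 55 members against transcript length in nt, both on log axes. The longer members lie more often above the line at 1, with medians of 1.07 for the longer 27 and 0.817 for the shorter 27.

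Of 24 gene lists kept for tissues and families, 7 held a member. The median log2 change of aramis RNAi over bam RNAi was -0.09 over all genes tested. Of all those genes, 3.25% were called lower in aramis RNAi and 2.99% higher. Of 49 nervous system genes tested, 4 were called lower in aramis RNAi and 2 higher, with a list median of 0.57 and 5-HT1A as its member. The eye list of 14 genes had 2 called lower and 0 higher, a median of 0.21, and Rh4 as its member. The chemosensory list of 93 genes had 4 called lower and 5 higher, a median of -0.20, and Or9a as its member. The members Rh4, Or9a and 5-HT1A thus stood on lists whose other genes lay on both sides of 0. The cuticle list of 44 genes, with Muc68Ca, had 1 called lower and 1 higher and a median of -0.07. Medians were 0.20 for the eggshell list, 1.26 for the list with GstE14, -1.12 for the testis list and 0.60 for the homeodomain list. Among 767 noncoding RNAs 27 were called lower and 11 higher, with a median of -0.49, and 8 were members. The members were chosen on this contrast. Not counting them, the genes called lower were 3 on the nervous system list, 1 on the eye list and 3 on the chemosensory list. The cuticle list had 0 such calls and the noncoding RNAs had 20.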

How the data were processed

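Per the labels, the authors made poly(A)-selected libraries with the NEXTflex Rapid Directional kit. The submitters' processing notes name HISAT2 2.1.0, featureCounts 1.4.6, DESeq2 1.24.0 and the build dm6. The deposited files hold whole-number read counts per gene for 4 libraries. CPM was taken on the column sums. Gene models were those of Ensembl on dm6. Of 64 protein-coding genes whose exons lie at least 99% within exons of the other strand, 60 had no count in any library, against 17.2% of 9378 genes sharing no exonic base, so reads in shared exons were apparently not counted and levels of overlapping genes are uncertain. DESeq2 1.42.0 (R 4.3.3) fitted the group alone, after the limits in the study's methods. edgeR 4.0.16, other scalings, limits and filters, a replicate block and leaving out each library were the alternatives. Intervals are exact conditional binomial intervals at 95%. The members and lists were chosen with earlier results of these data known. Named genes were ais and bam, the 12 highest members, members at 0 in aramis RNAi, up to 4 members from each list and the genes nearest each limit, and the other members were named to account for all of them. The few relatives and neighbours described as looked up later were chosen after values were seen, and CG15822 likewise.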

Additional observations from a re-analysis of the deposited data

How the results depend on the processing

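The number of genes meeting the limits depended on them and on the scaling. It was 165 at a bam RNAi limit of 1 CPM, 9 at 5 CPM, 27 at an aramis RNAi limit of 0.25 CPM and 141 at 1 CPM, and 32 members overlapped no other gene. It was 44 under TMM scaling, 41 under DESeq2 size factors and 60 after thinning to the smallest library, with 52 shared. Leaving out each library in turn gave between 88 and 111 genes (97 without aramis RNAi library 1, 111 without aramis RNAi library 2, 88 without bam RNAi library 1, 101 without bam RNAi library 2), as fewer libraries had to pass. Scaling to the summed germline markers, chosen after seeing the data, left 12: lncRNA:CR32773, CG32447, mid, CG2187, nwk, CG2887, stum, Or9a, 5-HT1A, CG14015, lncRNA:CR44463 and Mks1. Under that scaling the median share left, from mean CPM, was 10.6% in place of 4.0%, and bam in aramis RNAi stood at 197% of its bam RNAi level in place of 73.4%.

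The 50 members called lower became 44 with edgeR, 55 with total-count scaling and 48 without independent filtering. Total-count scaling called 166 genes higher and 622 lower (21.1% higher, against 47.9%), with a median log2 change over all genes of -0.45 against -0.09. Leaving out a library gave 15 to 21 members called (of 36 with an adjusted p without bam RNAi library 1 and 24 without bam RNAi library 2) and 188 to 890 genes called, against 695 (188 without aramis RNAi library 1, 429 without aramis RNAi library 2, 459 without bam RNAi library 1). Same-numbered libraries tended to deviate in opposite directions from the means of their groups (correlation -0.47 over 11128 genes). Thus aramis RNAi library 1 went with bam RNAi library 2, and aramis RNAi library 2 with bam RNAi library 1. With the replicate block, which pairs libraries by number, 28 members and 475 genes were called. The crossed pairing, added after seeing the data, called 44 members and 674 genes. Depth limits every member: at most 8 reads in any aramis RNAi library.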
